A study of Mus musculus with 2 samples.

Results

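Cycling blood endothelial cells made up 143 of the 14795 barcodes in 2 single-cell RNA libraries of endothelial cells sorted from mouse mammary tumors, 59 of 7821 in the library PyMT-M and 84 of 6974 in the library PyMT-N. A cell was a member when it held at least 1000 detected genes and at most 10% mitochondrial UMIs (unique molecular identifiers, each standing for 1 captured transcript), at least 5 UMIs of the endothelial genes Pecam1, Flt1, Emcn and Kdr, at most 1 UMI of Krt8, Krt18, Rhox5, Col1a1, Col3a1 and Ptprc, no UMI of the lymphatic gene Prox1, and at least 8 UMIs of 7 cell cycle genes, Mki67, Top2a, Cdk1, Birc5, Ube2c, Cenpf and Nusap1. Cells of the same gate with at most 2 UMIs of those 7 genes served as the reference. The members were thus selected on the measured UMIs of these genes, and every contrast of cycling with reference cells below is a description without a test.

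PyMT-M and PyMT-N are transplantable sub-lines of mammary carcinoma from MMTV-PyMT mice, in which a viral promoter drives the polyoma middle T oncogene in the mammary epithelium, grown in the mammary fat pad of C57BL/6 females. PyMT-M tumors are rich in macrophages and PyMT-N tumors in neutrophils, and the sources name no treatment for either. Each library held the cells of 3 tumors that were dissociated apart and then pooled, depleted of CD45+ and Ter119+ cells, enriched on CD31 and VE-cadherin beads and sorted as live CD31+ CD144+ cells. With 1 pooled library per group there is no spread between tumors, no p-value, and no way to tell tumor type from library, and each sub-line is 1 model of its kind.

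Endothelial cells of healthy adult vessels rest for long periods, while tumor vessels grow by sprouting, in which migrating tip cells lead and the stalk cells behind them divide. A dividing cell first copies its DNA in S phase, making histones to package it, and then builds a spindle and separates its chromosomes in mitosis. In developing vessels, Notch signaling and the arterial program are known to go along with withdrawal from the cell cycle, and veins are a known source of dividing cells.

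The members carried endothelial transcripts. A Pecam1 UMI was in all 59 cycling cells of PyMT-M and all 84 of PyMT-N, but Pecam1 was part of the gate. Cdh5, which encodes the VE-cadherin used in the sort but not in the gate, was seen in 59 of 59 and 83 of 84. Erg, an endothelial transcription factor, was seen in 39 and 73 of them, and in 0.101% and 0.571% of the non-endothelial cells defined next. In contrast, most cells of both libraries went against the sort: of 6284 cells of PyMT-M and 5574 of PyMT-N that passed the filters on genes and mitochondrial UMIs, 4934 and 3330 held no UMI of the 4 endothelial genes or of Ptprc, and Cdh5 was seen in 6.02% and 3.60% of these non-endothelial cells. The gate for blood endothelial cells held 558 cells of PyMT-M and 998 of PyMT-N. Of the non-endothelial cells, 24 of 4934 and 30 of 3330 had at most 1 UMI of the 6 genes that the gate used against other cell types. No doublet caller was run, so a pair of endothelial cells in 1 droplet would not be seen. None of the 59 cycling cells of PyMT-M and 33 of the 84 of PyMT-N held more UMIs than the median non-endothelial cell of their library, 23441 and 20474. The libraries shared 20 barcodes, and no gated cell of one had the barcode of a gated cell of the other.

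Depth differed between the libraries and between the populations. The median cycling cell held 8199 UMIs in the PyMT-M library and 17690 in PyMT-N, and the median reference cell 4656 and 11922.5, so the summed cycling cells gave 542662 and 1633910 UMIs and the 455 and 866 reference cells 2332545 and 11164432. Levels are given as CPM, the UMIs of a gene per 1000000 UMIs of the summed cells, and differences as log2 ratios of CPM. The 95% intervals are exact and cover counting error only, not differences between cells or tumors.

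Cycling cells were 10.6% of the gated cells in PyMT-M (59 of 558, exact 95% interval 8.15 to 13.4%) and 8.42% in PyMT-N (84 of 998, 6.77 to 10.3%), and these intervals overlapped. When each cell was thinned to 5000 UMIs, which left out 261 gated cells of PyMT-M and 44 of PyMT-N as too shallow, the shares were 15.2% (45 of 297, 11.3 to 19.7%) and 4.51% (43 of 954, 3.28 to 6.02%), which did not overlap. Among the cells left out were 2 cycling and 247 reference cells of PyMT-M, and 0 and 43 of PyMT-N. The cut took mostly reference cells in PyMT-M, which raised its share, so the thinned shares do not compare whole libraries at equal depth. Among cells of 10000 to 40000 UMIs the shares of cycling cells were 48.8% and 11.5%, with 21 cycling and 16 reference cells left in PyMT-M. The difference between the libraries therefore depended on how depth was treated, and it compares those libraries only. Of the non-endothelial cells, 3474 of 4934 (70.4%) in PyMT-M and 123 of 3330 (3.69%) in PyMT-N held at least 8 UMIs of the 7 genes. The spread of these counts over the gated cells had no gap at the threshold, with 17 and 13 cells at 6 to 7 UMIs and 7 and 7 cells at 8 to 10. Replication and mitosis genes together reached a median of 8811 CPM in the former and 8716 CPM in the latter in PyMT-M, and 3759 and 3885 CPM in PyMT-N.

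**Figure D1:**
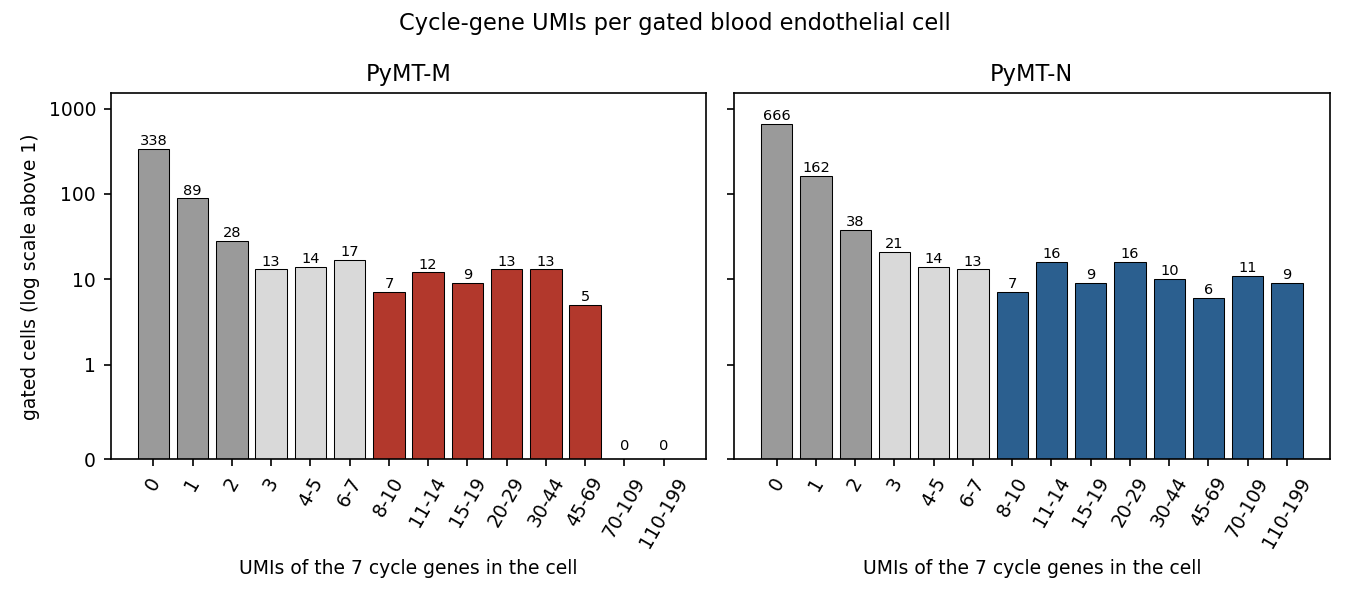
UMIs of the 7 cell cycle genes per gated cell (x axis, bins) against the number of cells (y axis, log scale above 1) in PyMT-M and PyMT-N, with reference cells in dark grey, cells in between in light grey and cycling cells in color. Most cells held 0 UMIs (338 and 666), and the cycling cells spread from 8 to beyond 45 UMIs with no gap below them.

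The 7 genes that defined the members were abundant in them. Mki67 (ENSMUSG00000031004), which encodes the Ki-67 protein of dividing nuclei, was at 369 CPM in the cycling and 3.43 CPM in the reference cells of PyMT-M, and 351 and 1.25 CPM in those of PyMT-N. It was detected in 53 of 59 and 79 of 84 cycling cells, and in 1.54% and 1.50% of the reference cells. Top2a, which encodes the enzyme that untangles replicated DNA, was at 601 CPM in the cycling and 10.3 CPM in the reference cells of PyMT-M, and 447 and 2.06 CPM in those of PyMT-N. Ube2c, which encodes the enzyme that marks mitotic cyclins for destruction, was at 485 and 387 CPM in the cycling cells. The levels of reference cells were higher in PyMT-M for each of the 7 genes. The limit of at most 2 UMIs allowed a higher CPM in the shallower cells of PyMT-M, and the part of depth was not tested. Non-endothelial cells had Mki67 at 31.7 CPM in PyMT-M and 14.7 CPM in PyMT-N, below the level in cycling endothelial cells, and the part of free RNA in the reference level was not tested. The median cycling cell held 6 of the 7 genes, and 22 of 59 and 35 of 84 held all of them.

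Promoters of 3 of these genes, picked from the 5 that carry both of a pair of motifs, are shown to make the motifs visible. Many mitotic genes are known to be held off in resting cells and switched on in G2 through the cell cycle homology region (CHR, searched as TTTGAA or TTTAAA) and through CCAAT boxes, while many replication genes carry E2F sites (searched as TTTCCCGC or TTTGGCGC). The windows below run from 250 bases before to 50 after the transcription start as RefSeq gives them on GRCm38.p6, with CHR and CCAAT matches of either strand in capitals. They lie at chr10:69352863-69353162 on the minus strand (Cdk1), chr2:164769679-164769978 on the plus strand (Ube2c) and chr11:99024140-99024439 on the minus strand (Top2a). The labels name mm39 as the build of the data, and the files give no coordinates.

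Cdk1: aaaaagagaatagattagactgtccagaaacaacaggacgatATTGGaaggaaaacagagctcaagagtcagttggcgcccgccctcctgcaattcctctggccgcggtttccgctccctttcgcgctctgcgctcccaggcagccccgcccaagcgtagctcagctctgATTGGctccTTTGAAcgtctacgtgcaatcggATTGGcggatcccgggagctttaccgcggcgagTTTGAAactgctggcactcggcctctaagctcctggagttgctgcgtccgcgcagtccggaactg

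Ube2c: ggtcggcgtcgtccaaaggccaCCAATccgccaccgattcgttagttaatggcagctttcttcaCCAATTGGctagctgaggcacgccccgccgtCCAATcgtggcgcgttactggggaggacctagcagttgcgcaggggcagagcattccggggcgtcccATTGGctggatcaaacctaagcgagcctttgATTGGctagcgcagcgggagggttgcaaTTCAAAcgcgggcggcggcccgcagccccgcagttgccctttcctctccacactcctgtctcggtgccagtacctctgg

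Top2a: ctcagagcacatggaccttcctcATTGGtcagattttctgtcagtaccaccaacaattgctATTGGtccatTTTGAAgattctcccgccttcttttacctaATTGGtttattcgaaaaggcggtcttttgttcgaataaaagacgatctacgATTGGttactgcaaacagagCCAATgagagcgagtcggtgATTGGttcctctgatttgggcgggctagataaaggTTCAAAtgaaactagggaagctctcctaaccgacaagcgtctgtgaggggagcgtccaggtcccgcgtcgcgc

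Of the 7 genes, 6 had a CHR match and 5 had both a CHR and a CCAAT match in the window, and Nusap1 had neither. Over 44 windows of 42 of the 50 genes of a separate mitosis list, 86.4% held a CHR and 75% held both, against 27.6% and 10.7% of all 32851 promoter windows. In 39 windows of 32 of the 40 replication genes, CHR matches were in 25.6% and E2F matches in 28.2%, where all promoters had E2F matches in 1.56%. CCAAT matches were in 59.0% of these windows, against 37.4% of all promoters. The pair was not confined to mitosis genes. In 58 windows of 57 of 66 replication-dependent histone genes, 63.8% held a CHR and 58.6% held both. These are matches of letters and say nothing of binding in these cells.

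DNA replication genes were higher in cycling than in reference cells in both libraries. The 40 listed genes summed to 3899 against 705 CPM in PyMT-M and 3089 against 446 CPM in PyMT-N, and 40 of 40 and 39 of 40 had the higher CPM in the cycling cells. Some reference cells held many UMIs of these genes, up to 43 in PyMT-M and 57 in PyMT-N. Whether such cells were in S phase was not tested. Among genes with at least 100 UMIs over both populations, the size from which genes were ranked, 169 of 4898 genes (3.45%) were at least 2-fold higher in the cycling cells of PyMT-M and 458 of 9067 (5.05%) in those of PyMT-N, and 45.7% and 46.1% of ranked genes had the higher CPM in cycling cells. Many replication genes reached 100 UMIs only through the cycling cells, so their count above 2-fold (13 of 14 and 29 of 30 ranked) is a description of the choice of cells. Tk1, the thymidine kinase that makes DNA precursors, was at 203 CPM in the cycling and 7.29 CPM in the reference cells of PyMT-M, and 126 and 1.25 CPM in those of PyMT-N. Pclaf, a partner of the replication clamp PCNA, had log2 ratios of 5.34 in PyMT-M (95% interval 4.74 to 5.99) and 7.84 in PyMT-N (7.18 to 8.58). Dut, which clears dUTP, and Lig1, which joins Okazaki fragments, had ratios of 2.84 and 2.76 in the PyMT-M library and 3.31 and 3.35 in PyMT-N. At the low end were Slbp, which binds histone mRNA (1.82 for PyMT-M and 1.49 for PyMT-N), and Mcm6, a subunit of the replicative helicase (1.32 for PyMT-M and 1.31 for PyMT-N). Pola2, a subunit of the primase complex, was the lowest of the list, at 49.8 CPM in the cycling and 45 CPM in the reference cells of PyMT-M, and 37.3 and 38.4 CPM in those of PyMT-N, with log2 ratios of 0.14 in PyMT-M (95% interval -0.52 to 0.77) and -0.04 in PyMT-N (-0.45 to 0.35).

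Replication-dependent histones were among the genes with the highest ratios in both libraries, with the 7 genes of the rule left out. Their mRNAs are made in S phase and mostly lack a poly(A) tail, so a 3′ library primed on poly(A) captures few of them. A list of 66 such genes, added after their values were seen, summed to 2042 against 385 CPM in PyMT-M and 2154 against 302 CPM in PyMT-N, and 10 and 5 of them had no UMI in either population. H1f5 (ENSMUSG00000058773), a linker histone, had 109 UMIs in the cycling and 1 in the reference cells of PyMT-M and 282 and 7 in PyMT-N. It thus reached 100 UMIs, the size for ranking, only through the cycling cells, and a high ratio follows from that. From so few reference UMIs its log2 ratio of 8.87 in PyMT-M had a wide interval, 6.36 to 14.19, and that in PyMT-N was 8.10 (7.04 to 9.43). The core histones H2ac8 and H2ac24 had log2 ratios of 6.47 and 5.91 in the PyMT-M library and 6.92 and 8.50 in PyMT-N. These genes share near-identical sequences with others of their clusters, so reads may have been divided among copies. The list was not uniform: H2bc4 had -1.60 for PyMT-M and -0.23 for PyMT-N, and H1f2 0.24 for PyMT-M and 0.27 for PyMT-N. Cells in between, with 3 to 7 UMIs of the 7 genes, had summed histone levels of 617 and 453 CPM, nearer to the reference than to the cycling cells.

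Mitosis genes were higher in cycling than in reference cells in both libraries. The 50 listed genes, none of them used by the rule, summed to 7246 against 727 CPM in PyMT-M and 7099 against 417 CPM in PyMT-N, log2 ratios of 3.32 (3.24 to 3.40) and 4.09 (4.04 to 4.14). All but 1 had the higher CPM in cycling cells in each library. Many of them, too, reached 100 UMIs only through the cycling cells (13 of 50 were ranked in the PyMT-M library and 39 in PyMT-N), and the median of the ranked genes in PyMT-M was 3.46, or 4.72 where 30 UMIs were enough to be ranked. Prc1, which bundles the microtubules of the midzone, was at 259.8 CPM in the cycling and 6 CPM in the reference cells of PyMT-M, and 211 and 1.52 CPM in those of PyMT-N. Cdca8, the borealin subunit of the chromosomal passenger complex, had log2 ratios of 5.44 for PyMT-M and 6.74 for PyMT-N, Cenpe, a kinetochore motor, 5.12 for PyMT-M and 6.64 for PyMT-N, Spc24, a subunit of the NDC80 complex, 4.70 for PyMT-M and 7.10 for PyMT-N, and Tpx2, which activates Aurora A on the spindle, 4.66 for PyMT-M and 6.10 for PyMT-N. These 4 were at 10 to 37 UMIs in the summed reference cells and at 89 to 372 UMIs in the cycling cells. The exception was Pttg1, which encodes securin, at 62.7 CPM in the cycling and 86.2 CPM in the reference cells of PyMT-M, and 43.5 and 54.9 CPM in those of PyMT-N, with log2 ratios of -0.46 in PyMT-M (95% interval -1.03 to 0.07) and -0.34 in PyMT-N (-0.71 to 0.02).

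Chromatin and cytoskeleton genes that serve dividing cells were also abundant. The 18 tubulins, lamins and chromatin proteins summed to 9769 against 3039 CPM in PyMT-M and 10807 against 3107 CPM in PyMT-N, and at least 2-fold higher were 14 of 16 ranked genes in PyMT-M and 15 of 17 in PyMT-N, against 3.45% and 5.05% of all ranked genes. Hmgb2, a chromatin protein, was at 1074 CPM in the cycling and 89.2 CPM in the reference cells of PyMT-M, and 1244 and 71.1 CPM in those of PyMT-N. It was also in the mitosis list, where it had the most UMIs in cycling cells, so part of this sum repeats the mitosis sum. Lmnb1, a lamin of the nuclear envelope, had log2 ratios of 3.51 for PyMT-M and 4.06 for PyMT-N, and Stmn1, which destabilizes microtubules, 2.99 for PyMT-M and 3.16 for PyMT-N. Tuba1a, a tubulin, was at 381 CPM in the cycling and 413 CPM in the reference cells of PyMT-M, and 703 and 499 CPM in those of PyMT-N, the lowest of the list by the mean of the libraries.

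**Figure D2:**
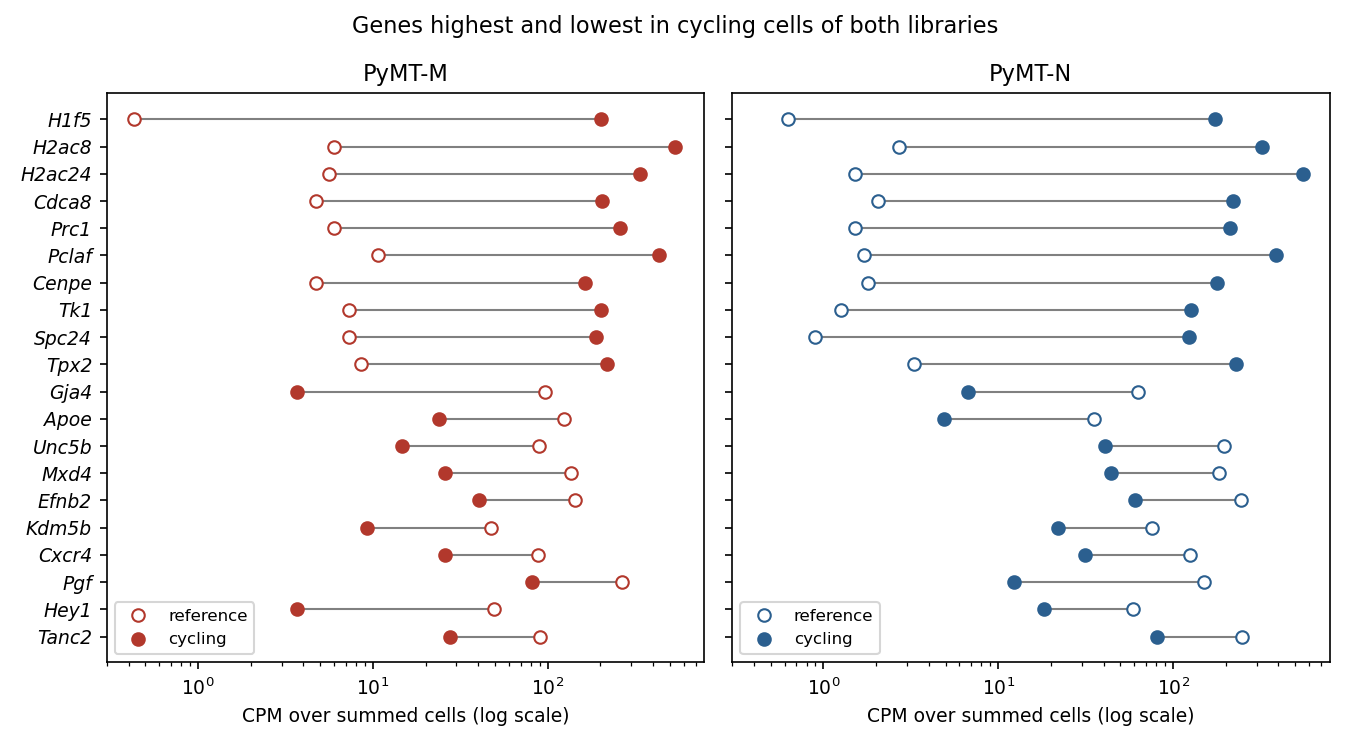
CPM over summed cells (x axis, log scale) in reference (open) and cycling cells (filled) of PyMT-M and PyMT-N, for the 10 genes highest and the 10 lowest in cycling cells of both libraries. Histone, mitosis and replication genes lie at under 12 CPM in reference and above 120 CPM in cycling cells, and the lower block runs from Gja4 to Tanc2.

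Members differed in where they stood in the cycle. As a share of each cell's UMIs from the replication and mitosis lists, replication genes made up a median of 28.6% in PyMT-M (quartiles 18.6 and 50%) and 21.5% in PyMT-N (11.6 and 46.4%). The lowest and highest cell stood at 4.84 and 74.5% in PyMT-M and at 2.86 and 73.4% in PyMT-N, so both libraries spanned cells led by mitosis genes and cells led by replication genes. Replication genes gave over 50% in 14 of 59 and 19 of 84 cells. The cells in between had medians of 38.4% and 47.0%, and the reference cells, with medians of 5 and 10 UMIs from both lists, 45.5% and 50%. Most of the 7 genes of the rule are known to peak in G2 and mitosis. Cycling cells with the higher replication share had more histone RNA in PyMT-N (2582 CPM in the 42 cells above the median share, 1599 CPM in the other 42), and less of a difference in PyMT-M (2123 CPM in 29 and 1932 CPM in 30 cells).

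Regulators of the G1 to S transition mostly had the higher CPM in cycling cells, though the ranked ones were split in PyMT-M. Of 24 cyclins, kinases and E2F factors, 20 in the PyMT-M library and 22 in PyMT-N had the higher CPM in cycling cells, beside 45.7% and 46.1% of all ranked genes. The sums were 1423 against 962 CPM in PyMT-M and 1120.0 against 573 CPM in PyMT-N. Of the ranked members, 5 of 8 in PyMT-M and 14 of 15 in PyMT-N were above 0. At least 2-fold higher were 1 of 8 and 6 of 15, beside 3.45% and 5.05% of all ranked genes. At least 2-fold lower were 1 of 8 and 0 of 15, beside 4.08% and 5.51%. Cdk4, the kinase of the D cyclins, was at 219 CPM in the cycling and 96.9 CPM in the reference cells of PyMT-M, and 187 and 102 CPM in those of PyMT-N. Its partner Ccnd1 was abundant in both populations, with log2 ratios of 0.15 in PyMT-M (95% interval -0.05 to 0.35) and 0.63 in PyMT-N (0.48 to 0.78). Cdk6 had -0.60 for PyMT-M and -0.36 for PyMT-N, with both intervals including 0. Myc was at 27.6 against 37.7 CPM in PyMT-M and 19 against 11.3 CPM in PyMT-N. E2f3 and E2f4, an activator and a repressor of cycle genes, had ratios of 0.69 and 0.30 in the PyMT-M library and 0.23 and 0.57 in PyMT-N.

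Genes tied to cell cycle exit were split. The 20 listed genes summed to 1085 against 1290.0 CPM in PyMT-M and 1072 against 1076 CPM in PyMT-N. Btg1 and Txnip, both known as antiproliferative, were at 47.9 against 154 CPM and 60.8 against 174 CPM in PyMT-M, log2 ratios of -1.68 (-2.32 to -1.11) and -1.52 (-2.08 to -1.01). In PyMT-N they were lower by less, -0.59 (-0.81 to -0.39) and -0.70 (-1.03 to -0.39). Cdkn1a, which encodes the inhibitor p21, was at 229 CPM in the cycling and 191 CPM in the reference cells of PyMT-M, and 94.3 and 113 CPM in those of PyMT-N, with log2 ratios of 0.26 in PyMT-M (95% interval -0.04 to 0.55) and -0.27 in PyMT-N (-0.52 to -0.02). Foxo1, a factor that restrains endothelial growth, had 0.10 for PyMT-M and -0.38 for PyMT-N, and Klf4 -0.05 for PyMT-M and -0.14 for PyMT-N. The list also holds Cdkn2c, an inhibitor known to be made in dividing cells (chosen after its values were seen), at 64.5 CPM in the cycling and 8.15 CPM in the reference cells of PyMT-M, and 58.8 and 5.2 CPM in those of PyMT-N. Mxd4, which opposes Myc at its target genes and was outside the list, was among the 10 lowest genes of both libraries, at 25.8 CPM in the cycling and 135 CPM in the reference cells of PyMT-M, and 44.1 and 183 CPM in those of PyMT-N.

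Biosynthesis genes were higher by a smaller amount than cycle genes. All 13 ranked ribosome biogenesis genes in PyMT-M and all 23 in PyMT-N had log2 ratios above 0, with medians of 0.83 and 0.91 and sums of 3689 against 2121 CPM in PyMT-M and 3126 against 1562 CPM in PyMT-N. Nop58, a core protein of box C/D particles, was at 173 CPM in the cycling and 74.6 CPM in the reference cells of PyMT-M, and 151 and 43.7 CPM in those of PyMT-N. Nop56, its partner, had log2 ratios of 0.93 for PyMT-M and 1.42 for PyMT-N, and Wdr43, of the small-subunit processome, 0.47 for PyMT-M and 0.75 for PyMT-N. Of the 24 nucleotide and one-carbon genes, 23 and 24 had the higher CPM in cycling cells. Nme1, a nucleoside diphosphate kinase, and Impdh2, of guanine nucleotide synthesis, had ratios of 1.02 and 0.89 in the PyMT-M library and 1.17 and 1.20 in PyMT-N.

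Energy genes differed less. Oxidative phosphorylation had median log2 ratios of 0.25 in PyMT-M (17 ranked) and 0.36 in PyMT-N (18 ranked). No ranked gene of it reached 2-fold, beside 3.45% and 5.05% of all ranked genes at least 2-fold higher and 4.08% and 5.51% lower. Among so few genes such a count is near those shares. Cycs, which encodes cytochrome c, was the highest, at 405 CPM in the cycling and 221 CPM in the reference cells of PyMT-M, and 293 and 188 CPM in those of PyMT-N. Glycolysis was split, with medians of 0.11 in PyMT-M (14 ranked) and -0.07 in PyMT-N (15 ranked), although its summed CPM gave 0.15 and 0.15. Eno1 and Ldha had ratios of 0.48 and 0.35 in the PyMT-M library and 0.55 and 0.50 in PyMT-N. Slc2a1, the glucose transporter GLUT1, was lower, at 22.1 CPM in the cycling and 57.9 CPM in the reference cells of PyMT-M, and 53.2 and 86.3 CPM in those of PyMT-N.

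**Figure D3:**
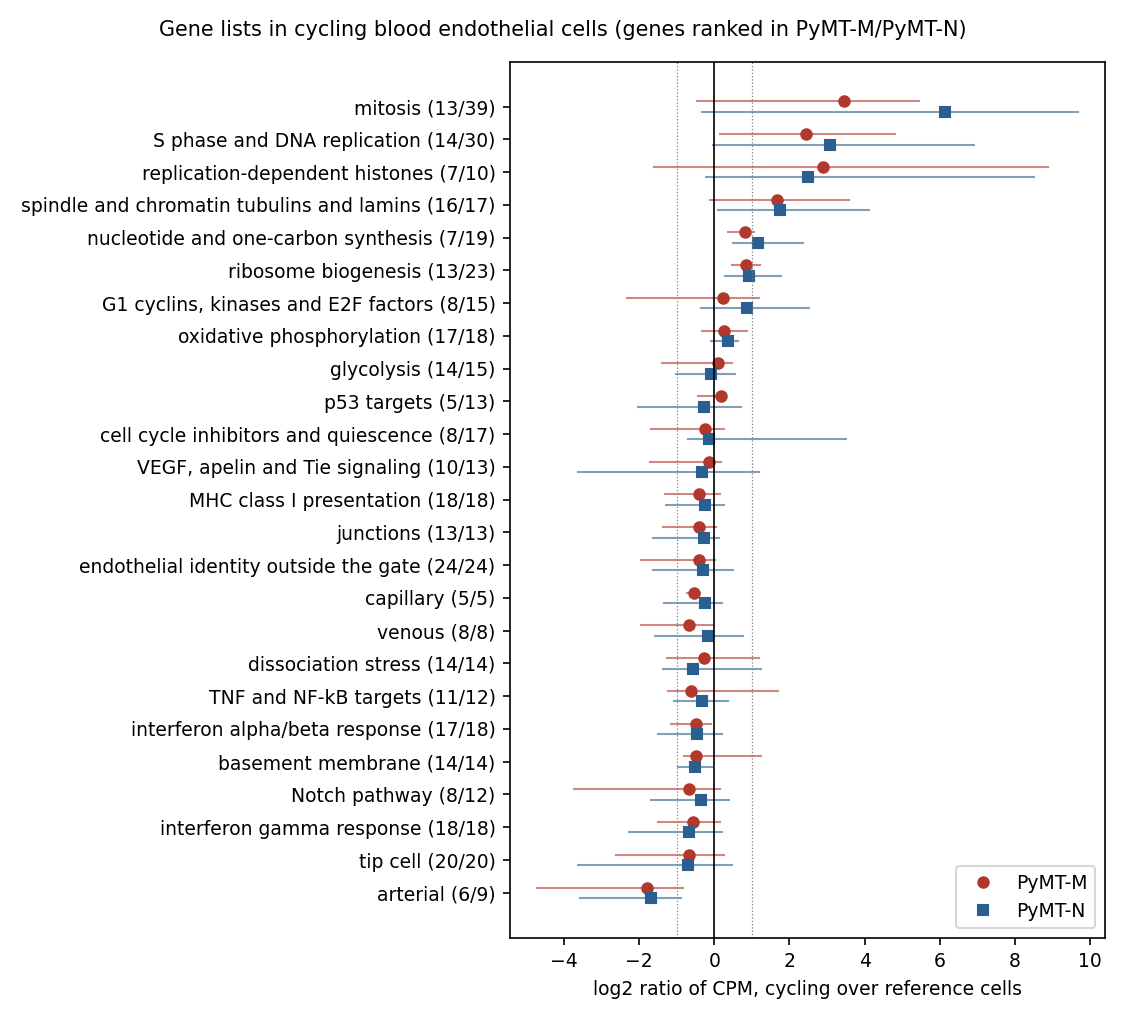
Median log2 ratio of CPM, cycling over reference cells (x axis), for each gene list with at least 5 ranked genes in both libraries, the genes of the rule left out (y axis, ranked genes of PyMT-M and PyMT-N in brackets), as circles for PyMT-M and squares for PyMT-N. Lines run from the lowest to the highest gene and dotted lines mark 2-fold. Of the lists plotted, the arterial list lies at the bottom in both libraries (-1.79 and -1.68) and the mitosis list at the top (3.46 and 6.12).

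Endothelial identity was retained at somewhat lower levels. The 24 identity genes outside the gate summed to 9317 against 12376 CPM in PyMT-M and 9637 against 12397 CPM in PyMT-N, and 22 and 21 of them had the lower CPM in cycling cells, where 4 of 24 and 3 of 24 were at least 2-fold lower against 4.08% and 5.51% of all ranked genes. The 4 gate genes together were at 3199 CPM in cycling and 4174 CPM in reference cells of PyMT-M and at 3481 and 3857 CPM in PyMT-N. Cdh5 had log2 ratios of -0.40 for PyMT-M and -0.57 for PyMT-N. The transcription factors Erg and Fli1 were close to the reference, at 0.01 and 0.00 in the PyMT-M library and -0.26 and -0.16 in PyMT-N, and so were Eng (0.01 for PyMT-M and 0.18 for PyMT-N), a TGF-beta co-receptor, and Tek, the angiopoietin receptor TIE2, in PyMT-M (-0.04, and 0.49 in PyMT-N).

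The genes at the low end of the identity list were Cldn5, Vwf and Sox7. Cldn5, the claudin of endothelial tight junctions, was at 259.8 CPM in the cycling and 662 CPM in the reference cells of PyMT-M, and 293 and 906 CPM in those of PyMT-N, with log2 ratios of -1.35 in PyMT-M (95% interval -1.61 to -1.10) and -1.63 in PyMT-N (-1.76 to -1.50). At an equal depth of 5000 UMIs it was seen in 21 of 57 (36.8%) cycling and 136 of 208 (65.4%) reference cells of PyMT-M, and in 42 of 84 (50%) and 658 of 823 (80%) in PyMT-N. Non-endothelial cells, which should lack it, had it in 0.102% and 0.723%. Vwf, the clotting protein von Willebrand factor, was at 70 CPM in the cycling and 268 CPM in the reference cells of PyMT-M, and 246 and 729 CPM in those of PyMT-N. Sox7, a factor of the SOXF family, had ratios of -1.69 in PyMT-M (95% interval -2.46 to -1.0) and -1.18 in PyMT-N (-1.45 to -0.91).

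The arterial genes had the lowest median ratio among the lists with at least 5 ranked genes in both libraries. The 10 genes summed to 265 against 805 CPM in PyMT-M and 332 against 911 CPM in PyMT-N, log2 ratios of -1.60 (-1.86 to -1.36) and -1.46 (-1.58 to -1.33), and all 10 had the lower CPM in the cycling cells of each library. Of the ranked genes, 5 of 6 and 8 of 9 were at least 2-fold lower, where the share of all ranked genes was 4.08% and 5.51%. Some of them, such as Gja4 and Hey1 in PyMT-M and Gja5 in PyMT-N, reached 100 UMIs only through the reference cells, where they are high, so this count is a description too. The cells in between lay between the populations, at 380.4 and 485 CPM. Gja5, which encodes connexin 40, had 1 and 2 UMIs in cycling cells against 49 and 161 in reference cells. Gja4 (ENSMUSG00000050234), which encodes the gap junction protein connexin 37 and is known to slow endothelial cycling, had 2 UMIs in the 59 cycling and 225 in the 455 reference cells of PyMT-M, and 11 and 706 in PyMT-N. Its levels were 3.69 CPM in the cycling and 96.5 CPM in the reference cells of PyMT-M, and 6.73 and 63.2 CPM in those of PyMT-N, with log2 ratios of -4.71 (-7.76 to -2.84) in PyMT-M and -3.23 (-4.24 to -2.38) in PyMT-N. It was confined to 1 cycling cell of PyMT-M and 3 of PyMT-N, and 1 cell held 8 of the 11 UMIs in PyMT-N. At 5000 UMIs per cell it was seen in 2 of 84 (2.38%) cycling and 88 of 823 (10.7%) reference cells of PyMT-N. In PyMT-M the shares of 1.75% and 5.77% had overlapping exact intervals, which alone does not decide whether they differed.

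Other arterial genes pointed the same way. Efnb2, the ephrin of arteries, was at 40.5 CPM in the cycling and 144 CPM in the reference cells of PyMT-M, and 60.6 and 244 CPM in those of PyMT-N, with log2 ratios of -1.83 in PyMT-M (95% interval -2.52 to -1.21) and -2.01 in PyMT-N (-2.31 to -1.72). At 5000 UMIs per cell it was seen in 10.5% of cycling and 27.9% of reference cells of PyMT-M and in 22.6% and 48.7% in PyMT-N, with 0.225% and 4.64% of non-endothelial cells. Hey1, a transcription factor induced by Notch, had ratios of -3.74 in PyMT-M (95% interval -6.80 to -1.86) and -1.68 in PyMT-N (-2.26 to -1.15), from 2 UMIs in the cycling cells of PyMT-M. Sox17, an arterial factor, had -1.54 for PyMT-M and -0.89 for PyMT-N, and Fbln5, an elastic fiber protein, -1.75 for PyMT-M and -1.52 for PyMT-N. In PyMT-M the arterial level was 339 CPM in the 30 cycling cells with the lower replication share and 211 CPM in the 29 with the higher, and in PyMT-N 339 and 327 CPM.

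Notch genes followed in part. Hey1 and Dll4 were members of this list and of the arterial list, so part of its count repeats the arterial one. In PyMT-M, Hey1 reached the size for ranking only through the reference cells, where it is high. The 2-fold count of the Notch list is thus a description too. The 14 listed genes summed to 680.0 against 1039 CPM in PyMT-M and 818 against 1227 CPM in PyMT-N, and at least 2-fold lower were 2 of 8 ranked genes in PyMT-M and 3 of 12 in PyMT-N, where all ranked genes had 4.08% and 5.51%. Dll4, the Notch ligand of tip and arterial cells, had log2 ratios of -0.84 in PyMT-M (95% interval -1.22 to -0.47) and -1.04 in PyMT-N (-1.24 to -0.84), and the receptors Notch4 and Notch1 -0.80 and -0.50 in the PyMT-M library and -0.86 and -0.41 in PyMT-N. Nrarp, a feedback target of Notch, was near the reference (0.15 for PyMT-M and -0.26 for PyMT-N).

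**Figure D4:**
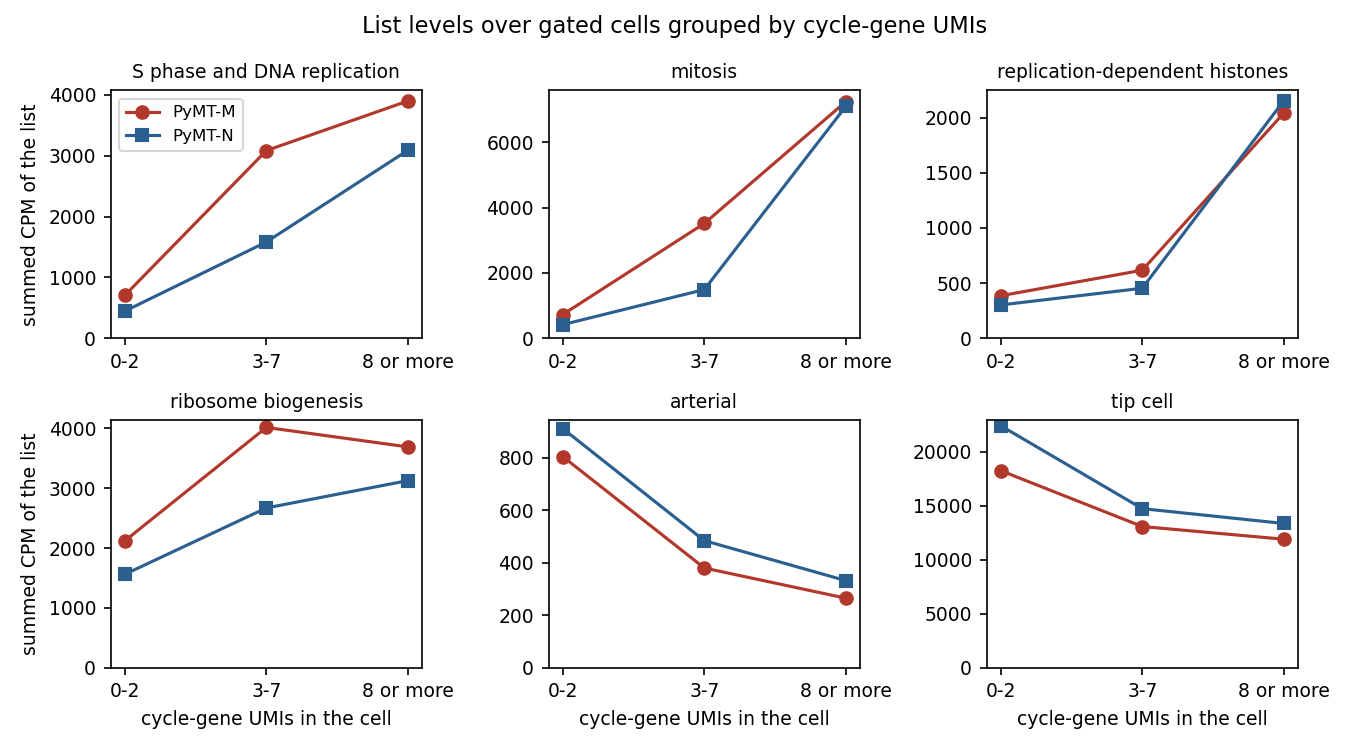
Summed CPM of 6 gene lists (y axes from 0) in gated cells with 0 to 2, 3 to 7 and 8 or more UMIs of the 7 cell cycle genes (x axis), as circles for PyMT-M and squares for PyMT-N. Replication levels were already higher in the cells in between (3084 and 1582 CPM), histone levels less so (617 and 453 CPM), and arterial and tip cell levels stepped down.

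Tip cell genes were lower too. The 20 genes summed to 11893 against 18229 CPM in PyMT-M and 13349 against 22383 CPM in PyMT-N, 17 and 18 of them had the lower CPM in cycling cells, and 6 of 20 and 7 of 20 were at least 2-fold lower, against 4.08% and 5.51% of all ranked genes. A large part of these sums was Sparc, also in the basement membrane list. Sparc was at 4963 CPM in the cycling and 6925 CPM in the reference cells of PyMT-M, and 5018 and 7713 CPM in those of PyMT-N. Unc5b, a netrin receptor of tip cells, was at 14.7 CPM in the cycling and 89.6 CPM in the reference cells of PyMT-M, and 41 and 195 CPM in those of PyMT-N, with log2 ratios of -2.60 in PyMT-M (95% interval -3.83 to -1.60) and -2.25 in PyMT-N (-2.62 to -1.90). Non-endothelial cells held Unc5b too. At 5000 UMIs per cell it was seen in 7.02% of cycling, 25.5% of reference and 22.6% of non-endothelial cells of PyMT-M, and in 5.95%, 46.9% and 51.3% of those of PyMT-N. Before thinning these shares were 11.9%, 27.5% and 62.8%, and 26.2%, 66.3% and 89.6%. The part of free RNA in its levels was not tested. Cxcr4, the receptor of CXCL12, was at 25.8 CPM in the cycling and 87.9 CPM in the reference cells of PyMT-M, and 31.2 and 125 CPM in those of PyMT-N. Pgf, placental growth factor, was at 81.1 CPM in the cycling and 266 CPM in the reference cells of PyMT-M, and 12.2 and 151 CPM in those of PyMT-N, and 1 cell gave 38.6% and 1 cell 35% of its cycling UMIs in the libraries. Without these cells the log2 ratios of Pgf went from -1.72 to -2.36 in PyMT-M and from -3.63 to -4.22 in PyMT-N. Apln, the apelin peptide of tip cells, stood apart from the list, with ratios of 0.06 in PyMT-M (95% interval -0.14 to 0.26) and 0.46 in PyMT-N (0.29 to 0.63). At 5000 UMIs per cell Apln was seen in 38 of 57 (66.7%) cycling and 122 of 208 (58.7%) reference cells of PyMT-M and in 37 of 84 (44%) and 203 of 823 (24.7%) in PyMT-N. The exact intervals of these shares overlapped in PyMT-M and not in PyMT-N. Plaur, the urokinase receptor, was near the reference (0.06 for PyMT-M and -0.19 for PyMT-N). Esm1 was on opposite sides of the reference in the libraries, at -0.93 and 0.16, but 1 cycling cell of PyMT-N held 36.2% of its UMIs and without it the ratio there was -0.46.

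Genes of VEGF, apelin and Tie signaling differed less, with sums of 1883 against 2439 CPM in PyMT-M and 1809 against 2043 CPM in PyMT-N. Apln and Pgf were in this list and in the tip cell list. Aplnr, the apelin receptor and a gene of veins and sprouting vessels, was at 217 CPM in the cycling and 221 CPM in the reference cells of PyMT-M, and 383 and 226 CPM in those of PyMT-N, log2 ratios of -0.02 in PyMT-M (95% interval -0.32 to 0.27) and 0.76 in PyMT-N (0.63 to 0.88). At 5000 UMIs per cell it was seen in 26 of 57 (45.6%) cycling and 76 of 208 (36.5%) reference cells of PyMT-M and in 62 of 84 (73.8%) and 349 of 823 (42.4%) in PyMT-N, and in at most 0.0603% of non-endothelial cells. The exact intervals of cycling and reference cells overlapped in PyMT-M and not in PyMT-N. Nrp1, a VEGF co-receptor, had -0.94 for PyMT-M and -0.34 for PyMT-N, and Tie1 -0.72 for PyMT-M and -0.74 for PyMT-N.

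Venous genes summed to 778 against 1195 CPM in PyMT-M and 1162 against 1590.0 CPM in PyMT-N. In PyMT-N the lower sum came from Vwf, the von Willebrand factor gene (246 against 729 CPM), which differed by more than the whole sum, and 5 of 9 venous genes had the higher CPM in cycling cells there. Nr2f2, the factor of venous identity, had log2 ratios of -0.10 in PyMT-M (95% interval -0.58 to 0.36) and 0.39 in PyMT-N (0.13 to 0.63), and Selp, P-selectin, -0.13 for PyMT-M and 0.08 for PyMT-N, or -0.78 in PyMT-M without the cell that held 37.7% of its UMIs there. Ackr1, the chemokine scavenger of venules, was lower in both, at 25.8 CPM in the cycling and 72.9 CPM in the reference cells of PyMT-M, and 9.18 and 23.3 CPM in those of PyMT-N, from 14 and 15 UMIs in the cycling cells. In PyMT-M 1 cell held 9 of the 14, and without it the log2 ratio went from -1.50 to -2.96. Lrg1, an angiogenic glycoprotein, had -0.74 for PyMT-M and -0.42 for PyMT-N. Ackr1 and Vwf were the ranked venous genes at least 2-fold lower, 2 of 8 in each library against 4.08% and 5.51% of all ranked genes. All 8 ranked genes were below 0 in PyMT-M and 4 of 8 in PyMT-N, where Aplnr was the highest of the list.

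Capillary genes were lower as a sum in both libraries, at 4032 against 5877 CPM in PyMT-M and 1605 against 3314 CPM in PyMT-N, with median log2 ratios of -0.53 in PyMT-M (5 ranked) and -0.25 in PyMT-N (5 ranked). At least 2-fold lower were 0 of 5 and 2 of 5, beside 4.08% and 5.51% of all ranked genes, so that in PyMT-M the count was no higher than the background. Fabp4, a fatty acid binding protein, was at 2250.0 CPM in the cycling and 3098 CPM in the reference cells of PyMT-M, and 566 and 1263 CPM in those of PyMT-N, and Gpihbp1, which anchors lipoprotein lipase on capillaries, at 1030.1 CPM in the cycling and 1706 CPM in the reference cells of PyMT-M, and 632 and 1587 CPM in those of PyMT-N. Cd36, a fatty acid receptor, had ratios of -0.53 in PyMT-M (95% interval -0.86 to -0.21) and 0.20 in PyMT-N (-0.22 to 0.60), and Rgcc -0.55 for PyMT-M and -0.24 for PyMT-N. The 6 lymphatic genes summed to 57.1 against 70.3 CPM in PyMT-M and 96.7 against 188 CPM in PyMT-N, of which Flt4, VEGF receptor 3 and also a gene of sprouting blood vessels, had 0.17 for PyMT-M and -0.41 for PyMT-N.

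Interferon genes had lower summed levels in cycling than in reference cells of each library. The interferon alpha/beta list summed to 4371 against 5834 CPM in PyMT-M and 1447 against 1959.7 CPM in PyMT-N, and 19 of 19 and 17 of 19 genes found in the files had the lower CPM in cycling cells. The interferon gamma list summed to 2316 against 3441 CPM in PyMT-M and 995 against 1457 CPM in PyMT-N, with 22 of 24 lower in each. At least 2-fold lower were 2 of 17 and 4 of 18 ranked genes of the first and 4 of 18 and 5 of 18 of the second, beside 4.08% and 5.51% of all ranked genes. Rsad2, the antiviral protein viperin, was at 147 CPM in the cycling and 322 CPM in the reference cells of PyMT-M, and 53.9 and 143 CPM in those of PyMT-N, although 1 cell held 61.4% of the cycling UMIs in PyMT-N, without which the log2 ratio there went from -1.41 to -2.75. Ifit1, which binds viral RNA, had log2 ratios of -0.97 in PyMT-M (95% interval -1.44 to -0.54) and -1.0 in PyMT-N (-1.49 to -0.55), and Ifit3 -0.90 for PyMT-M and -1.51 for PyMT-N. At 5000 UMIs per cell Ifit3 was seen in 20 of 57 (35.1%) cycling and 105 of 208 (50.5%) reference cells of PyMT-M, and in 8 of 84 (9.52%) and 120 of 823 (14.6%) of PyMT-N. Cxcl9, a chemokine for T cells, was seen in 17 of 57 (29.8%) and 81 of 208 (38.9%) of PyMT-M, and 9 of 84 (10.7%) and 81 of 823 (9.84%) of PyMT-N. The exact intervals of each of these 4 pairs overlapped, which alone does not decide whether the shares differed. Cxcl10, which also draws T cells, was at 147 CPM in the cycling and 304 CPM in the reference cells of PyMT-M, and 15.3 and 73.8 CPM in those of PyMT-N. In PyMT-N 1 cell held 12 of its 25 cycling UMIs, and without it the log2 ratio went from -2.27 to -3.20. Gbp2 and Gbp4, guanylate binding proteins, had -0.97 and -1.51 in the PyMT-M library and -1.45 and -0.66 in PyMT-N. The immunoproteasome gene Psmb9 and the peptide transporter gene Tap1 were near the reference (0.13 and 0.15 in PyMT-M, 0.21 and -0.06 in PyMT-N).

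MHC class I presentation genes summed to 8847 against 12708 CPM in PyMT-M and 5590.3 against 6526 CPM in PyMT-N, and only H2-T23, a nonclassical class I gene, was at least 2-fold lower in both libraries (-1.32 for PyMT-M and -1.29 for PyMT-N), 1 of 18 ranked genes in each, which is near the 4.08% and 5.51% of all ranked genes. Class I genes resemble each other in sequence, so their reads may have been divided. TNF and NF-kB targets summed to 1179 against 1391 CPM in PyMT-M and 840.3 against 1234 CPM in PyMT-N. Nfkbia, the inhibitor of NF-kB that the pathway itself induces, was at 227 CPM in the cycling and 397 CPM in the reference cells of PyMT-M, and 242 and 502 CPM in those of PyMT-N, while Icam1, an adhesion receptor for leukocytes, had -0.01 for PyMT-M and 0.17 for PyMT-N, with 40% of its cycling UMIs in PyMT-M from 1 cell.

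Basement membrane genes were mostly lower, 13 of 14 in PyMT-M and 14 of 14 in PyMT-N, each by less than 2-fold. Of all ranked genes, 45.7% and 46.1% had the higher CPM in cycling cells. Col4a2, a chain of collagen IV, was at 995 CPM in the cycling and 1539 CPM in the reference cells of PyMT-M, and 1610.2 and 2537 CPM in those of PyMT-N, and Nid2, a nidogen that links laminin to collagen, had -0.78 for PyMT-M and -0.96 for PyMT-N. Fn1, fibronectin, had 1.24 for PyMT-M and -0.06 for PyMT-N, but 1 cycling cell of PyMT-M held 57.4% of its UMIs, and without that cell the ratio was 0.05. It was -1.68 without the tenth of cells with the most RNA of non-endothelial genes. Junction genes summed to 4349 against 5893 CPM in PyMT-M and 4952 against 6628 CPM in PyMT-N. Beside Cldn5, the plakoglobin gene Jup had -0.79 for PyMT-M and -0.47 for PyMT-N and the connexin 43 gene Gja1 -0.77 for PyMT-M and -0.43 for PyMT-N, and Esam, an adhesion molecule of endothelial junctions, -0.25 for PyMT-M and -0.17 for PyMT-N.

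The p53 targets, a readout of DNA damage, summed to 938 against 936 CPM in PyMT-M and 694 against 733 CPM in PyMT-N, and 0 of 5 and 4 of 13 ranked genes were at least 2-fold lower, beside 4.08% and 5.51% of all ranked genes. Bax had log2 ratios of 0.01 for PyMT-M and 0.30 for PyMT-N and Mdm2, the p53 antagonist, 0.17 for PyMT-M and -0.21 for PyMT-N. Genes known to respond to tissue dissociation were at similar sums (4190.4 against 3929 CPM in PyMT-M and 2912 against 2919 CPM in PyMT-N), but not gene by gene. Hsp90aa1, a chaperone, was at 805 CPM in the cycling and 354 CPM in the reference cells of PyMT-M, and 573 and 240.5 CPM in those of PyMT-N, and Hspa1b, a heat shock protein, at 33.2 against 79.7 CPM and 48.4 against 104 CPM. Among cells of 10000 to 40000 UMIs, of which PyMT-M had 21 cycling and 16 reference cells, the log2 ratio of Hspa1b there was 0.52. Whether dissociation had a part in the ratios of other genes was not tested.

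The 20 genes named as highest or lowest came out the same way in both libraries by their choice. Of 4891 genes ranked in both, 168 were at least 2-fold higher in the PyMT-M library and 179 in PyMT-N, and 122 were so in both (72.6% and 68.2% of each list). Of these, 44 were in the cycle, histone, ribosome or nucleotide lists. At least 2-fold lower were 198 and 171, with 68 in both (34.3% and 39.8%). Beside those named above, the lowest were Apoe, the lipid carrier apolipoprotein E (-2.36 for PyMT-M and -2.85 for PyMT-N), Kdm5b, a histone demethylase (-2.36 for PyMT-M and -1.77 for PyMT-N), and Tanc2 (-1.70 for PyMT-M and -1.62 for PyMT-N). Apoe rested on 13 and 8 UMIs in the cycling cells, and 1 cell held 53.8% of them in PyMT-M. Among cells of 10000 to 40000 UMIs its ratio in PyMT-M was 1.1, with 21 cycling and 16 reference cells.

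Markers of other cell types were followed in the same cells. The 20 tumor cell markers summed to 264 CPM in cycling, 230.2 CPM in reference and 3657 CPM in non-endothelial cells of PyMT-M, and to 350.1, 446 and 31700.3 CPM in PyMT-N, and 11 and 9 of them had no UMI in cycling or reference cells. Trps1, the most abundant of them, was at 136 CPM in the cycling and 161 CPM in the reference cells of PyMT-M, and 181 and 221 CPM in those of PyMT-N. The rest of the sum was thus higher in cycling than in reference cells in PyMT-M and lower in PyMT-N. Of the tumor cell markers, 5 had the higher and 4 the lower CPM in cycling cells of PyMT-M, and 3 and 8 in PyMT-N. The 10 pericyte markers were at 22.1 against 66.5 CPM in PyMT-M and 84.5 against 330.4 CPM in PyMT-N, lower in the cycling cells, where the pericyte receptor gene Pdgfrb had 0 UMIs in each library and Abcc9, a channel subunit, was the most abundant at 20.3 and 64.9 CPM. In cycling cells, 8 of 10 pericyte markers of PyMT-M and 5 of 10 of PyMT-N were at 0. Fibroblast markers were at 1.84 against 15.4 CPM in PyMT-M and 9.79 against 7.26 CPM in PyMT-N, and myeloid markers at 14.7 against 24.9 CPM in PyMT-M and 19 against 25.9 CPM in PyMT-N. Lymphocyte markers had 0 UMIs in the cycling cells of PyMT-M, but in PyMT-N they were higher in cycling than in reference cells, at 12.9 against 2.33 CPM, a log2 ratio of 2.46 (1.56 to 3.35) from 21 UMIs in the cycling cells. Erythroid markers had 0 UMIs against 43.3 CPM in PyMT-M and 1.22 against 33.1 CPM in PyMT-N. The gate itself held Ptprc, Col1a1, Col3a1, Krt8, Krt18 and Rhox5 of these lists to at most 1 UMI per cell in all, so their low counts follow from the rule. The macrophage gene C1qa, outside the gate, had 0 and 1 UMIs. As a wider measure, the 50 genes that most set non-endothelial cells apart were summed. Without 2 replication-dependent histones among those of PyMT-M, they were at 527 CPM in cycling, 415 CPM in reference and 14888 CPM in non-endothelial cells of PyMT-M, a log2 ratio of 0.34 (0.15 to 0.54), and in PyMT-N at 248, 321 and 43675 CPM. The part of such RNA in single ratios was not tested beyond leaving out the tenth of cells that held most of it, which left the list medians for replication, mitosis, arterial, tip cell and interferon gamma genes within their counting error in both libraries. Without these cells the ratios of Fn1 and Tnc in PyMT-M changed sign, to -1.68 and -0.63, and the median of the capillary list between the cycling cells of the libraries was 2.43.

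Between the libraries, cycling cells differed in interferon and capillary genes in the way reference cells did. Of 4016 genes ranked over the cycling cells of both libraries, 90 (2.24%) were at least 2-fold higher and 93 (2.32%) at least 2-fold lower in PyMT-M, and of 9134 ranked over the reference cells 276 (3.02%) and 282 (3.09%). The interferon alpha/beta list had a median log2 ratio, PyMT-M over PyMT-N, of 1.48 in the cycling cells (13 genes ranked) and 1.42 in the reference cells (18 ranked), and the interferon gamma list 1.18 in the cycling cells (13 genes ranked) and 1.24 in the reference cells (20 ranked). At least 2-fold higher in cycling cells of PyMT-M were 10 of 13 and 9 of 13 of these. MHC class I genes had 0.87 in the cycling cells (15 genes ranked) and 1.02 in the reference cells (18 ranked), and capillary genes 1.99 in the cycling cells (5 genes ranked) and 1.29 in the reference cells (5 ranked). Among cells of 10000 to 40000 UMIs the capillary median in cycling cells was 0.24, with 21 cycling cells left in PyMT-M. So the interferon genes that were lower in cycling than in reference cells within a library were still higher in the cycling cells of PyMT-M (summed alpha/beta list 4371 CPM) than in the reference cells of PyMT-N (1959.7 CPM).

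The genes furthest apart between the cycling cells of the libraries were named by the same rule. Ifi27l2a, an interferon-induced gene, had a log2 ratio of 4.02 (3.33 to 4.79) in cycling and 4.83 in reference cells, Cxcl10, of whose 25 UMIs in PyMT-N 12 were in 1 cell, 3.27 (2.60 to 3.98) and 2.04, and Rbp7, a retinol binding protein, 2.93 (2.47 to 3.42) and 3.20. Thbs1, the angiogenesis inhibitor thrombospondin 1, had 2.87 (2.37 to 3.39) and 1.73. Tnc, tenascin C, had 3.52 (2.93 to 4.15) and 0.00, but 1 cell held 78.9% of its 114 UMIs in the cycling cells of PyMT-M. At the other end, Bgn, the proteoglycan biglycan, had -3.47 (-4.43 to -2.65) and -0.89, Sox4 -2.47 (-3.10 to -1.90) and -1.06, Plat, tissue plasminogen activator, -2.34 (-3.42 to -1.42) and -1.23, Limch1 -2.33 (-3.16 to -1.60) and -1.76, and Prnd, a marker of endothelial sprouts, -2.32 (-2.93 to -1.77) and -1.11. The same limit on cell cycle UMIs chose the cells of both libraries, so their cycle levels are a description. That limit asked for a higher CPM in the shallower cells of PyMT-M, and the part of depth was not tested. None of 45 ranked mitosis and none of 27 ranked replication genes reached 2-fold between the cycling cells, and 22 of the 27 replication genes were above 0, with a log2 ratio of their sums of 0.34 (0.26 to 0.41). Whether these differences come from the tumors or from the 2 libraries cannot be told apart.

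**Figure D5:**
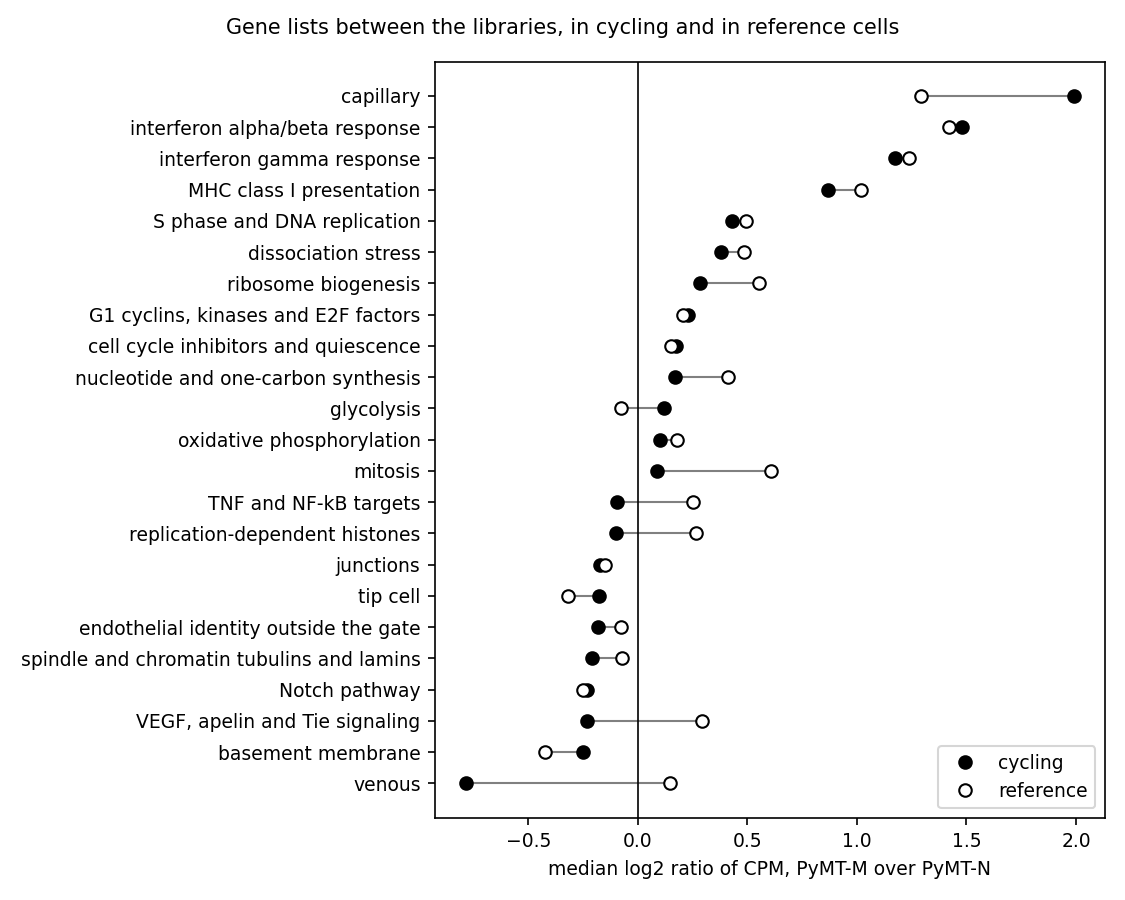
Median log2 ratio of CPM, PyMT-M over PyMT-N (x axis), for gene lists with at least 5 ranked genes in both populations (y axis), in cycling (filled) and reference cells (open). Capillary and interferon lists lie to the right in both populations, and the mitosis list lies near 0 in cycling cells (0.08).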

How the data were processed

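Single-cell 3′ RNA libraries were made from 2 pools of sorted tumor endothelial cells, 1 for PyMT-M and 1 for PyMT-N. The authors made the deposited UMI counts per gene and cell with Cell Ranger 8.0.0 against a reference that the labels name as mm39, and the annotation used was named by none of the sources. The labels name collagenase I and DNase I for dissociation and the methods collagenase II and dispase II. The 33696 genes of the files gave 33670 symbols after 26 rows that share a symbol were summed.

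Cells were gated as stated at the opening, and counts were summed over the cells of a population and library and divided by their total UMIs. Ratios have exact conditional binomial 95% intervals and shares exact Clopper-Pearson intervals, which cover counting error only. With 1 library per group no test was made, and called means past 2-fold among genes with at least 100 UMIs over both populations. The floor for a count of 0 was 3 UMIs. The cycling cells summed to 542662 UMIs (PyMT-M) and 1633910 UMIs (PyMT-N), so genes at a few CPM rest on few UMIs, above all in PyMT-M. The interval code was tested on simulated counts. The named genes were the 10 highest and 10 lowest by the smaller ratio of the libraries (genes of the rule left out), the 3 highest and 3 lowest of each list, the rule genes and markers, and the 5 highest and 5 lowest between libraries, and a few beyond these were named after their values were seen, as were other members of the lists that are given as examples. The members and the 32 gene lists were chosen with earlier results of these data known, and the histone list was added after its values were seen. Promoters came from a RefSeq table on GRCm38.p6. Python 3.11.15 with numpy 2.4.6, scipy 1.17.1, matplotlib 3.10.9 and pandas 2.3.3 was used. Alternatives changed the cycling, reference, endothelial, other-type and mitochondrial limits, the depth window, thinning, the total, the floor on UMIs, and the weighting of cells.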

Additional observations from a re-analysis of the deposited data

Results flagged for a closer look

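Several genes had ratios of cycling over reference cells on opposite sides of 0 in the libraries, with counting intervals that did not include 0. With 1 library per tumor type the difference between the libraries was not tested. Tnc had a log2 ratio of 1.49 in the PyMT-M library and -2.03 in PyMT-N, but 1 cycling cell of PyMT-M held 90 of its 114 UMIs, and without that cell the ratio was -0.71, on the same side as in PyMT-N. This cell of 20591 UMIs had 19 UMIs of Pecam1, 17 of Cdh5, 14 of Emcn and none of Flt1 or Kdr. It had 1408 CPM of the genes that most set non-endothelial cells apart, histones left out, against 527 CPM over all cycling cells of PyMT-M. Esm1, a secreted proteoglycan of tip cells, had -0.93 and 0.16, and 1 cycling cell of PyMT-N held 151 of its UMIs, without which the ratio there was -0.46.

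Bgn had -1.69 in the PyMT-M library and 0.89 in PyMT-N, and without the cell that held most of its UMIs in each library -2.07 and 0.81. Klf2, a factor induced by blood flow, had -0.96 and 0.39, and -1.16 and 0.24 without that cell. Ptprb, the phosphatase VE-PTP of endothelial junctions, had -0.65 and 0.20, and -0.72 and 0.13 without that cell. H2-Q7, a class I gene with close relatives, had -0.59 and 0.19, and -0.64 and 0.14 without it, where the interval in PyMT-N included 0. Unlike Tnc and Esm1, these 4 genes kept opposite signs without their top cell, but among cells of 10000 to 40000 UMIs the ratio of Bgn in PyMT-M was 0.20, on the same side as in PyMT-N.

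Cells left out of the gate for a Prox1 UMI also held cycling cells. In PyMT-N, 12 of 172 such cells reached 8 UMIs of the 7 cell cycle genes (6.98%, exact 95% interval 3.66 to 11.9%), which overlapped the share of 8.42% in the gated cells. In PyMT-M none of 10 did, for which the exact upper limit is 30.8%.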

How the results depend on the processing

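No paired analysis was possible because each group has 1 library and the labels give no replicate numbers. For the same reason no library could be left out. Of 1537 values that alternatives gave for ratios and medians of at least 2-fold, 1530 kept their direction and 1484 stayed past 2-fold. Values that answer a comparison stayed within a set window in 206 of 229 cases, and those of single genes and other lists in 4190 of 4364. There were 7 reversals of ratios past 2-fold. The window was the counting interval for cell shares and single genes, and 1.5-fold for numbers of genes. For a list median it was the median half-width of its genes' intervals, and for the replication share the quartiles over cells. For mitosis in PyMT-N that half-width was 0.78, while the list sum had an interval of 4.04 to 4.14. These counts are thus a loose check for list medians.

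The share of cycling cells was 7.17% in the PyMT-M library and 6.11% in PyMT-N with a limit of 15 UMIs. It was 48.8% and 11.5% among cells of 10000 to 40000 UMIs, and 15.2% and 4.51% after thinning to 5000 UMIs. With a limit of 3 UMIs after thinning, chosen after seeing the data, it was 24.9% and 8.60%. The median of the tip cell list in PyMT-N was -0.91 with the limit of 15 UMIs. Genes past 2-fold in PyMT-M numbered 25 higher and 22 lower in the depth window, which left 21 cycling and 16 reference cells. With at least 30 UMIs they numbered 544 and 631 in the PyMT-M library and 788 and 942 in PyMT-N, and with at least 1 UMI in both populations 1663 and 1062, and 1967 and 1112. The mitosis median in PyMT-M was 4.72 and 4.77 under these limits, as more low genes entered. The capillary median of PyMT-M over PyMT-N in cycling cells was 0.24 in the depth window, 1.35 with at least 1 UMI in both and 2.43 without the tenth of cells with the most non-endothelial RNA, an alternative chosen after seeing the data.

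The ratios of at least 2-fold that turned their sign were all in PyMT-M. Smaller ratios also turned, such as that of Esm1 in PyMT-N, at -0.46 without its top cell. In the depth window Apoe had 1.1, Hspa1b 0.52, Bgn 0.20 and Limch1 0.10. Without the tenth of cells with the most non-endothelial RNA, Fn1 had -1.68 and Tnc -0.63, and Tnc had -0.71 without its top cell (also chosen after seeing the data). The cause was not tested. Leaving cycle, mitochondrial and ribosomal protein genes out of the total shifted the median of all genes by 0.05 in the PyMT-M library and 0.06 in PyMT-N on the log2 scale.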

Other observations

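Cycling endothelial cells were also set beside the cycling cells without endothelial UMIs of their own library, 3474 in the PyMT-M library and 123 in PyMT-N, in both of which the same limit of 8 UMIs chose the cells. Of 11566 and 7461 ranked genes, 22.8% and 12.7% were at least 2-fold higher and 15.1% and 12.8% at least 2-fold lower in the endothelial cells. Mitosis genes summed to 7246 against 4790.3 CPM in PyMT-M and 7099 against 6414 CPM in PyMT-N, and replication genes to 3899 against 2624 CPM and 3089 against 2826 CPM. In PyMT-M, 18 of 50 mitosis genes were at least 2-fold higher in the endothelial cells, and in PyMT-N none of 50. Ribosome biogenesis genes were lower in the endothelial cells of PyMT-M, at 3689 against 7176 CPM, with 10 of 24 at least 2-fold lower, and close in PyMT-N, at 3126 against 3287 CPM. Histone genes, a list added after values were seen, summed to 2042 against 991 CPM in PyMT-M and 2154 against 2482 CPM in PyMT-N. The cycling non-endothelial cells were deeper in both libraries, with medians of 25564 UMIs against 8199 in PyMT-M and 34536 UMIs against 17690 in PyMT-N, so that the limit of 8 UMIs asked for a lower level in them, and the part of depth in these values was not tested.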
